A study of Caenorhabditis elegans with 2 samples.

Results

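The 3 Dishevelled genes of *Caenorhabditis elegans*, dsh-1, dsh-2 and mig-5, were examined for binding by UNC-62, the worm's Meis-type homeodomain transcription factor. They are 3 of 19985 annotated protein-coding genes. They were chosen by measured values, namely the ranks of UNC-62 regions at their promoters, and the ranks, distances and replicate overlaps below are therefore descriptions that carry no test. The assay was ChIP-seq, in which DNA fragments brought down with a protein are sequenced. The material was whole animals at the L4 larval stage, described as males and females pooled. There was 1 group with 2 biological replicates, of strain OP600, which per the labels carries unc119(ed3) and the insertion wgIs600, a copy of unc-62 fused to TY1, EGFP and FLAG sequences together with unc119. The labels place the tag at the C-terminus. The antibody is labelled unc-62, without saying whether it recognised the protein or its tag. Material from whole animals mixes all tissues, so a site bound in few cells and a site bound weakly in many cannot be told apart.

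Dishevelled proteins are cytoplasmic scaffolds that relay Wnt signals. When a Wnt ligand engages a Frizzled receptor, Dishevelled is recruited to the membrane and restrains the complex of Axin, APC, GSK3 and casein kinase that destroys beta-catenin. A branch without beta-catenin uses Dishevelled in planar cell polarity. In worm larvae these pathways orient asymmetric divisions, among them those of the seam cells and the somatic gonad precursors, and guide migrating Q neuroblasts. Meis factors such as UNC-62 bind DNA with Pbx partners, and TGACAG is the core word that they recognise.

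UNC-62 regions of moderate rank lay at the starts of dsh-2 and mig-5 and not at the outermost start of dsh-1. All 3 genes are on the minus strand of chromosome II (build WBcel235, the same assembly as ce11). dsh-2 spans chrII:5078233-5081174, mig-5 spans chrII:8182323-8185023 and dsh-1 spans chrII:5214400-5225384. dsh-2 has 1 annotated transcript, mig-5 has 3 transcripts and dsh-1 has 8 transcripts with 7 different starts. The longest coding sequences are 2277, 2016 and 2943 bp for dsh-2, mig-5 and dsh-1.

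The sequences under the regions of both replicates are given 5′ to 3′ on the gene strand, because they hold or lack the Meis word. They leave out annotated UTRs. The 300 bases before the start of mig-5 (chrII:8185024-8185323, minus strand) hold TGACAG on the opposite strand, read here as its reverse complement and set in capitals. The 300 bases before the start of dsh-2 (chrII:5081175-5081474, minus strand) lack TGACAG, and the capitals mark the shorter word TGACA on either strand. TGACA was present in the 300 bp upstream of 43.9% of 19973 protein-coding genes. In the first 40 coding bases of dsh-2 (chrII:5081118-5081157, minus strand) the capitals mark TGACAG. The dsh-1 stretch (chrII:5223867-5224136, minus strand) is the intronic part of the widest overlap between replicates there, and its capitals mark the GATA-factor word.
mig-5 upstream: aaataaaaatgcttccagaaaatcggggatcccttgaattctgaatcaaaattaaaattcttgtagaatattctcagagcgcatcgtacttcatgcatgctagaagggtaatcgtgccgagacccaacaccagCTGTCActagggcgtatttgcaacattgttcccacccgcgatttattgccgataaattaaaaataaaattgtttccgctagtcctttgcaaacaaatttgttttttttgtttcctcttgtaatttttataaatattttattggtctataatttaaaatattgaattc
dsh-2 upstream: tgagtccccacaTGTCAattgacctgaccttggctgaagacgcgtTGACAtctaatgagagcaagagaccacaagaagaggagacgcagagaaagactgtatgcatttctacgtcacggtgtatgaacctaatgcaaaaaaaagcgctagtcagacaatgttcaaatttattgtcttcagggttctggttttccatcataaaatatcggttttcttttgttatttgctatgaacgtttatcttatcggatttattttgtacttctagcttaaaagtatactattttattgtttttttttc
dsh-2 first codons: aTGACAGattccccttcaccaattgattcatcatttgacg
dsh-1 intron: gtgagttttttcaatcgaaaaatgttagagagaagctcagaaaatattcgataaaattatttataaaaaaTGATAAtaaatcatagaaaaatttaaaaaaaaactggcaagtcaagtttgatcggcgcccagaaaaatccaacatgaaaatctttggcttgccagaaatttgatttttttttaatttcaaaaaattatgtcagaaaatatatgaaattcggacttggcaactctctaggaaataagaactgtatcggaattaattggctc

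Replicate 1 had 18114 regions and replicate 2 had 20477, and 4849 came from the pooled reads, in lists that were unthresholded and included background. A list of 197 thresholded peaks, selected by the irreproducible discovery rate, equals the 197 highest pooled regions. Regions were ranked by the authors' signal value, with rank 1 the highest, and signal scales differ between lists. A q-value is the false discovery rate the authors attached to a region, and 352 pooled regions had a q-value of 0.05 or less. Read numbers are not in these lists, so the depth behind each value is unknown. A region was counted at a gene where its summit lay from 1000 bp upstream to 500 bp downstream of any transcript start, or in the gene body.

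By this rule the 3 genes held 4 regions of replicate 1, 7 of replicate 2, 4 of the pooled list and 0 thresholded peaks. A thresholded peak was found at 0 of 3 Dishevelled genes and at 0.691% of all protein-coding genes. A pooled region was at 3 of 3, against 16.9% of all genes. Regions of replicate 1 and of replicate 2 were each at 3 of 3, against 48.2% and 50.9% of all genes. Overlapping regions of both replicates (at least 1 bp) were at 3 of 3, against 16.6%, and a pooled region found in both replicates was at 2 of 3, against 9.99%. The same 2 genes, dsh-2 and mig-5, had a pooled region with a q-value of 0.05 or less, against 1.35% of all genes, or 1% where only the promoter window counted. The promoter window alone also gave dsh-2 and mig-5 as the genes with a pooled region found in both replicates, against 6.79% of all genes. These shares stand beside counts that the choice of the genes used, and nothing is read from their difference.

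**Figure D1:**
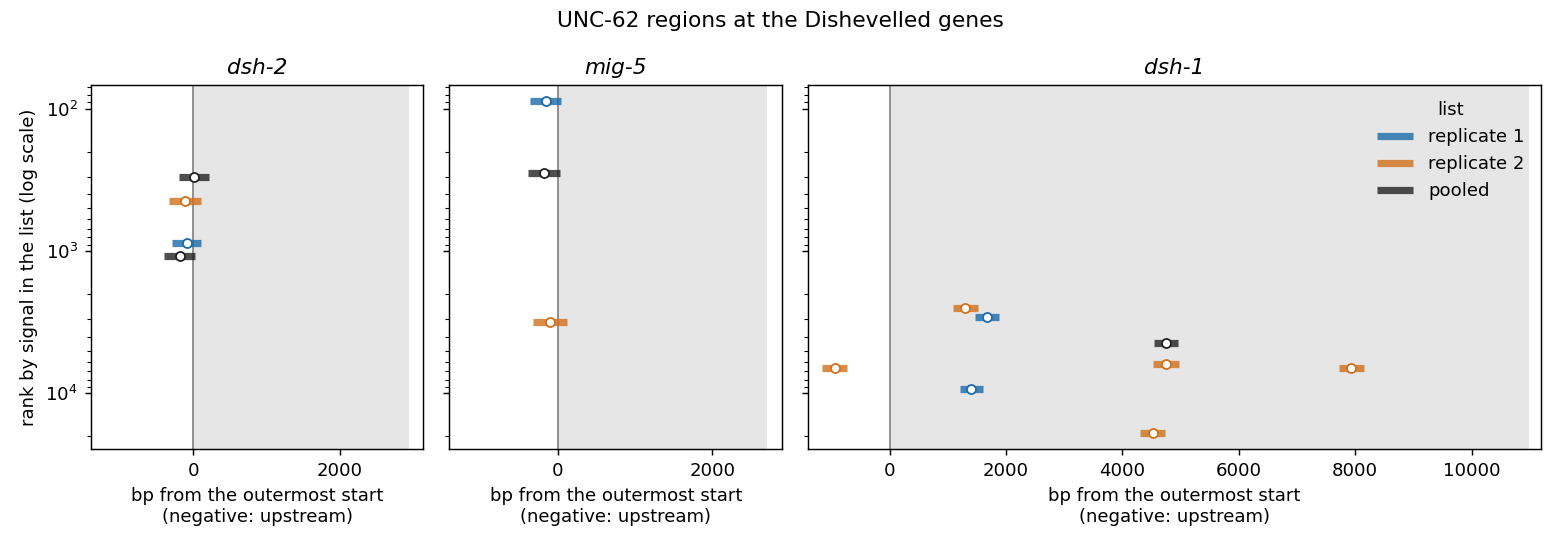
Each bar is a region at its place relative to the outermost start of the gene (x axis, bp) and at its rank by signal in its list (y axis, log scale, best at the top), with the summit as a white dot and the gene in grey. The regions of all lists cluster at the start of dsh-2 and of mig-5, whereas those at dsh-1 are scattered over the gene, and the best of them ranks 2500.

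mig-5 encodes a Dishevelled protein named for its part in cell migration. Its promoter held 1 region in each unthresholded list. The region of replicate 1 (chrII:8184977-8185380) had a signal of 11.8, ranked 89 of 18114 and had q = 0.0022. The region of replicate 2 (chrII:8184907-8185342) had a signal of 5.96, ranked 3155 of 20477 and had q = 0.386. The replicates thus placed a region at the same position, sharing 366 bp with summits 54 bp apart, but only replicate 1 ranked it high. In the pooled list (chrII:8184994-8185409) it had a signal of 18.1, rank 285 and q = 0.0404. The lowest thresholded peak had a signal of 20.6.

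The mig-5 region lay in a promoter that 2 genes share. The gap of 419 bp between the starts of mig-5 and cct-1, which reads the other way and encodes a subunit of the CCT chaperonin, held all 3 summits. They lay 156 bp upstream of mig-5 and 264 bp upstream of cct-1 in replicate 1, and 102 and 318 bp in replicate 2. The pooled summit lay 179 bp upstream of mig-5 and 241 bp upstream of cct-1. mig-5 thus had the nearer start in every list, and to which gene the region belongs was not tested. cct-1 was named for its position after the values were seen.

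dsh-2 encodes a Dishevelled protein known for its part in asymmetric neuroblast and gonad precursor divisions. The region of replicate 1 (chrII:5081062-5081465) had a signal of 6.09, ranked 879 and had q = 0.0233. The region of replicate 2 (chrII:5081064-5081499) had a signal of 10.2, ranked 447 and had q = 0.028. Both replicates thus placed it near the top of their lists, at 4.85% and 2.18% of the ranks. They shared 402 bp, and their summits, 90 and 108 bp upstream of the start, were 18 bp apart.

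In the pooled list the dsh-2 promoter held a pair of overlapping regions in place of the one in each replicate. The higher (chrII:5080952-5081367) had a signal of 17.8, rank 300 and q = 0.0384, with its summit 14 bp downstream of the start, in the 5′ UTR. The lower (chrII:5081152-5081567) had a signal of 11.5, rank 1087 and q = 0.365, with its summit 186 bp upstream. The replicate summits lay between these 2 pooled summits, at 104 and 122 bp from the higher and at 96 and 78 bp from the lower. The summit at dsh-2 thus differed more between the pooled list and either replicate than between the replicates. Upstream of dsh-2 lies C04G6.4 on the same strand, whose end is separated from the dsh-2 start by 315 bp and whose own start lay 2081 to 2281 bp from the summits. C04G6.4 was likewise named after the values were seen.

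dsh-1, the longest of the 3 genes at 10985 bp, had regions of low rank spread along its length. Replicate 1 had 2 regions in it, at ranks 2904 (signal 4.46, q = 0.114) and 9346 (signal 2.94, q = 0.444), with summits 116 and 384 bp upstream of an internal start. Replicate 2 had 5 regions, at ranks 2500 (signal 6.38, q = 0.31), 6184, 6675, 6680 and 18875, the last with q = 0.95. The best of these ranked above the mig-5 region of replicate 2, which had rank 3155 and q = 0.386. The region ranked 2500 in replicate 2 overlapped both regions of replicate 1, by 47 bp with the one ranked 2904 and by 315 bp with the one ranked 9346, and the summits were 373 and 105 bp apart. No pooled region lay there. The pooled region at dsh-1 (chrII:5220427-5220842) lay elsewhere in the gene, in a coding exon, 39 bp downstream of another internal start, with a signal of 7.80, rank 4404 and q = 0.947. It had the same summit as the replicate 2 region ranked 6184 and overlapped no region of replicate 1.

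Because dsh-1 is long, its number of regions was set against the length searched. The search window was 11985 bp for dsh-1, 3942 bp for dsh-2 and 3701 bp for mig-5, against a median of 3028 bp over all protein-coding genes. dsh-1 held 0.167 regions per kb in replicate 1, against 0.181 per kb over the nuclear genome, and 0.417 per kb in replicate 2, against 0.204. In the pooled list it held 0.0834 per kb, against 0.0481. These densities rest on 2, 5 and 1 regions.

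Regions at the edge of the window were of low rank. The farthest upstream summit inside it lay 941 bp upstream of dsh-1 in replicate 2, at rank 6680 and q = 0.645. The nearest outside it lay 1153 bp upstream of mig-5 in replicate 1, at rank 15595 and q = 0.759. Farther out, 2509 bp upstream of dsh-2 and near the start of C04G6.4, a region ranked 1589 in the pooled list (q = 0.535) and 849 in replicate 2 (q = 0.0961), and one with its summit 2454 bp upstream ranked 14968 in replicate 1.

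The replicates differed in rank by more at mig-5 than at dsh-2. The ranks at mig-5 differed 35.4-fold, and at dsh-2 they differed 1.97-fold. Among the 2794 pooled nuclear regions found in both replicates, which make up 57.9% of the nuclear pooled regions, the median difference was 3.14-fold, and 3.72% differed by more than mig-5 and 68.2% by more than dsh-2. Among the 148 such regions that had a q-value of 0.05 or less and ranked below the thresholded peaks, the median was 3.86-fold, and 10.1% differed by more than mig-5. Summit positions were closer than usual at dsh-2, where the replicates' summits were 18 bp apart. They were 54 bp apart at mig-5, and the median was 48 bp in the smaller set and 96.5 bp in the larger. Regions share libraries and are not independent, so these are descriptions.

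**Figure D2:**
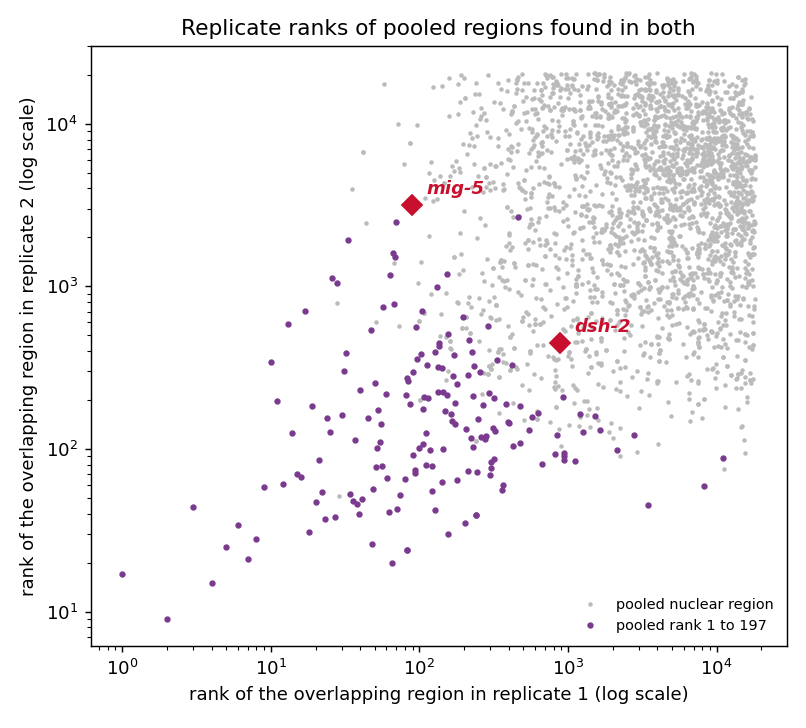
Each point is a pooled nuclear region placed by the rank of its overlapping region in replicate 1 (x axis) and replicate 2 (y axis), both on log scales with the best at the lower left. The mig-5 region ranks 89 and 3155 and the dsh-2 region ranks 879 and 447, and purple points are the pooled regions ranked 1 to 197.

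Sequence was not part of the choice of the genes. The words were searched on both strands within 100 bp of each summit, and TGACA is contained in TGACAG. At mig-5 a TGACAG upstream of the start lay within 100 bp of the summit in every list, at 6 bp in replicate 1, 60 bp in replicate 2 and 12 bp in the pooled list. At dsh-2 a TGACAG lay 4 bp from the higher pooled summit. It was 108 and 126 bp from the summits of replicates 1 and 2, outside the searched distance. At dsh-1 the nearest TGACAG was 1045 bp or more from every summit. The word was thus within 100 bp of the summit at mig-5 in all lists, and at dsh-2 only for the higher pooled summit. At dsh-2 it was 204 bp from the lower pooled summit, and it lay inside the regions of both replicates.

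The TGACAG of dsh-2 is coding sequence. It starts at the second base of the coding sequence and takes in the last bases of the start codon, as the printed codons show. TGACAG was present within 100 bp of 9.61% of nuclear pooled summits, 7.86% of those of replicate 1 and 7.25% of those of replicate 2. It was present at 20.6% of the 155 nuclear pooled regions that had a q-value of 0.05 or less and ranked below the thresholded peaks. The pooled region of mig-5 and the higher pooled region of dsh-2 belong to these 155. In the 300 bp upstream of the outermost start TGACAG was found at mig-5 and not at dsh-2, against 9.32% of 19973 protein-coding genes. The shorter TGACA had 0 matches within 100 bp of the dsh-2 summits of replicates 1 and 2, and 1 near the lower pooled summit. It was present at 39.9% of nuclear pooled regions.

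Other words were few at the promoters. The Hox-Pbx word TGATNNAT had 2 overlapping matches near the higher pooled summit of dsh-2, both in its first coding bases, and 0 matches near the mig-5 summits, against 16.2% of nuclear pooled regions with a match and 11.6% of the 155 regions of like rank. The Pbx-Meis composite TGATTGACA and the GATA word TTATCA, printed above as its reverse complement, had 0 matches within 100 bp of any summit at dsh-2 and mig-5, against 0.704% and 27.4% of nuclear pooled regions with a match. Among the 155 regions of like rank the composite was present in 3.23% and the GATA word in 46.5%. At dsh-1 the summit ranked 2500 in replicate 2 had 4 matches to the GATA word, of which 1 is in the printed intron and 3 are in the adjoining coding exon. The replicate 1 summits of the regions it overlapped had 0 matches (rank 2904) and 1 match (rank 9346), and the other replicate 2 summits at dsh-1 had 0 or 1. The GATA word was present in 20.6% of the nuclear regions of replicate 1 and 21.2% of those of replicate 2. TGATNNAT had 1 match near each of the dsh-1 summits ranked 2904 and 9346 in replicate 1 and 2500 in replicate 2. Its shares over the nuclear regions were 15.8% in replicate 1 and 15.7% in replicate 2. TGACA had 1 match near each of the same replicate 1 summits, against 35.2% of the nuclear regions of that list. The pooled summit of dsh-1 had 0 matches to any of the 5 words. The GC content within 100 bp of the pooled summit was 41.8% at mig-5, 32.3% at the higher region of dsh-2 and 43.3% at dsh-1, against a median of 36.8%.

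**Figure D3:**
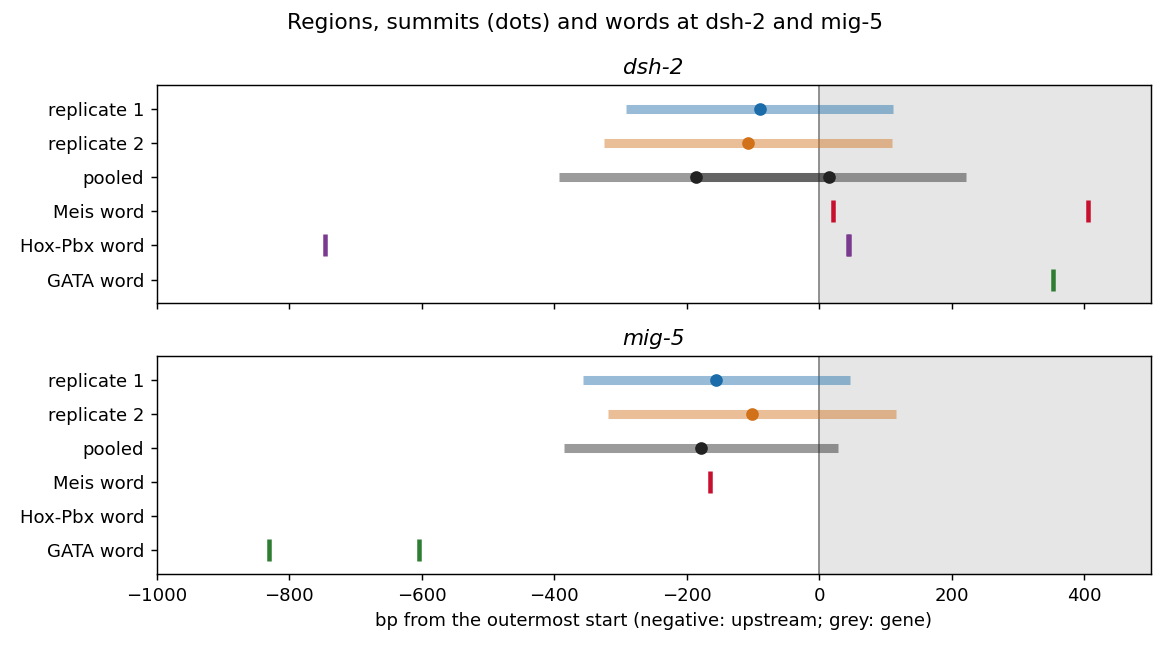
Regions (bars) and summits (dots) of each list, and matches to 3 words (ticks), are placed by distance from the outermost start of dsh-2 and mig-5 (x axis, bp, gene in grey). The Meis word TGACAG lies inside the regions of all lists at mig-5, 6 to 60 bp from their summits. At dsh-2 it lies inside the higher pooled region, 4 bp from its summit, and inside both replicate regions, downstream of their summits.

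The other genes of the pathway were set beside the Dishevelled genes in the order of the signal. A pooled region with a q-value of 0.05 or less was at 2 of 3 Dishevelled genes and at 0 of the 15 ligand, receptor and beta-catenin genes, beside 1.35% of all protein-coding genes. A pooled region of any q-value was at 3 of 3 and at 5 of 15, beside 16.9% of all genes. One found in both replicates was at 2 of 3 and at 2 of 15, beside 9.99% of all genes. The Dishevelled genes were selected on these ranks, so nothing is read from their counts against those of the other genes. The counts of 0 and 2 of 15 are near the shares over all genes, and the count of 5 of 15 is above its share of 16.9%. The windows of these 15 genes ran from 3198 to 15390 bp, against a median of 3028 bp over all protein-coding genes. The unthresholded lists include background. The same shares over all genes, 16.9% and 9.99%, are the background for the counts of each list below.

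Of the 5 Wnt ligand genes (lin-44, egl-20, mom-2, cwn-1 and cwn-2), 1 had a pooled region and 0 had one found in both replicates. It was at egl-20, the ligand that guides Q neuroblasts, 710 bp upstream at rank 2857 (q = 0.807), overlapping a region of replicate 1 ranked 2771 and none of replicate 2.

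Of the 6 receptor genes (the Frizzled genes lin-17, mig-1, mom-5 and cfz-2, the Ror gene cam-1 and the Ryk gene lin-18), 3 had a pooled region and 2 had one found in both replicates. lin-17 had 2 regions found in both, at ranks 1148 (q = 0.382) in a coding exon and 1715 (q = 0.566) upstream. The region at cfz-2 ranked 1182 (q = 0.398) in a coding exon, with partners ranked 4161 and 6316 in replicates 1 and 2. The dsh-2 and mig-5 regions ranked above each of these in the pooled list, and the dsh-1 region below them. Because the Dishevelled genes were chosen on such ranks, nothing is read from this order.

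Of the 4 beta-catenin genes (bar-1, wrm-1, sys-1 and hmp-2), 1 had a pooled region and 0 had one found in both replicates. It was at bar-1, the beta-catenin of the canonical pathway, 539 bp upstream at rank 3035 (q = 0.832), with a replicate 2 partner at rank 1097 and none in replicate 1. wrm-1, a beta-catenin of asymmetric divisions, had no region in any list, as was the case for the ligand gene cwn-1.

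Among 16 further pathway genes, 7 had a pooled region, 4 had one found in both replicates and 1 had a thresholded peak. The shares over all protein-coding genes were 16.9%, 9.99% and 0.691%. The search windows of the 16 genes ran from 3198 to 23414 bp, against a median of 3028 bp over all protein-coding genes. The thresholded peak was in an intron of mom-1, the worm Porcupine that acylates Wnt ligands for secretion, with its summit 3525 bp downstream of the mom-1 start and 3305 bp upstream of the start of cest-16. It ranked 7, 21 and 14 in replicate 1, replicate 2 and the pooled list, above every region at a Dishevelled gene. The others found in both replicates were at tap-1, gsk-3 and apr-1. At tap-1, which encodes a TAB1-like partner of a kinase, the region lay 156 bp upstream (rank 1448, q = 0.489). At gsk-3, the glycogen synthase kinase of the destruction complex, 1 region lay in an intron (rank 2399, q = 0.75). The other gsk-3 region lay in the 3′ UTR (rank 3147, q = 0.845), 153 bp upstream of the start of nhx-8. At apr-1, the APC gene, the region lay 89 bp upstream (rank 3051, q = 0.834). The best-ranked pooled region at a promoter of these 16 genes, that of tap-1, ranked below the pooled regions of mig-5 and both pooled regions of dsh-2. The Dishevelled genes were chosen on the ranks of their promoter regions, so nothing is read from this order.

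**Figure D4:**
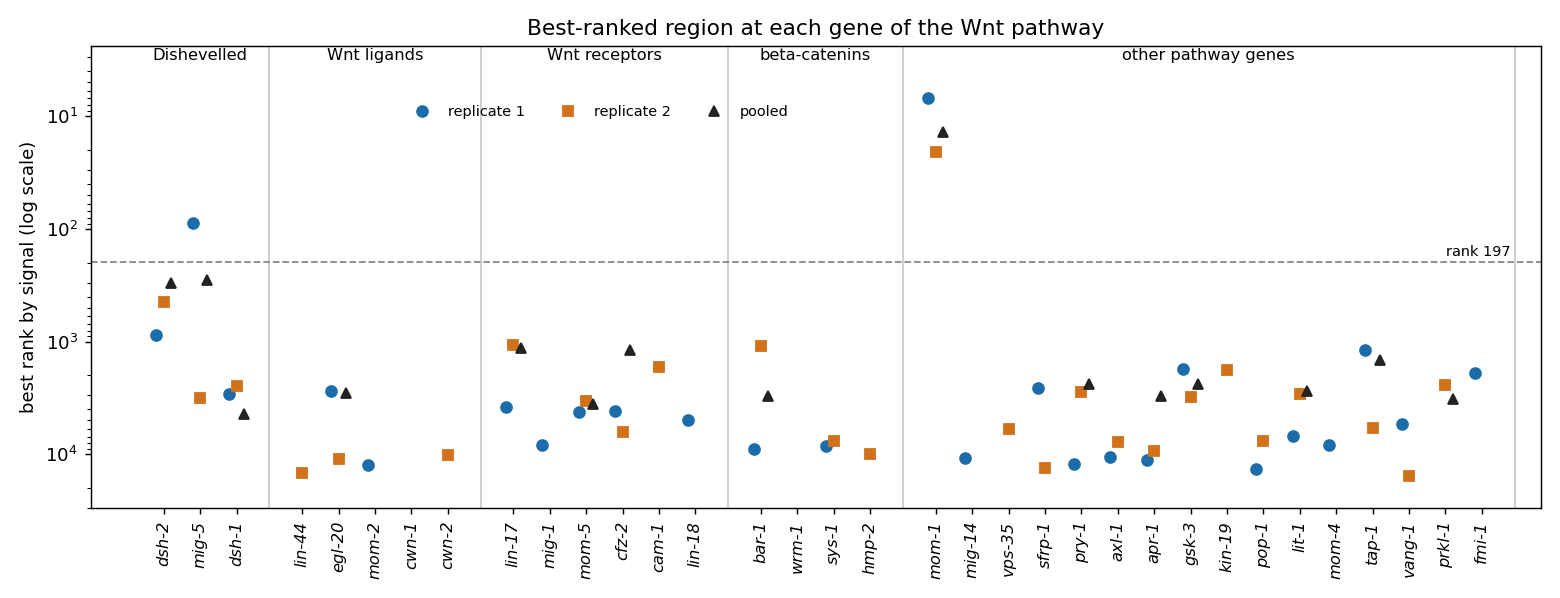
The best rank at each gene (y axis, log scale, best at the top) is given for replicate 1, replicate 2 and the pooled list, and a list with no region at the gene has no symbol. The dashed line marks rank 197, the length of the thresholded list. Pooled regions of dsh-2 and mig-5 sit just below the line, mom-1 sits above it, and the best pooled region at any other comparison gene ranks 1148.

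Genes whose best ranks in the 3 unthresholded lists were most like those of each Dishevelled gene were found by the Euclidean distance of log10 rank, over 2 replicates and their pool, with genes of the same pooled region left out. For dsh-2 these were sucl-1, a succinate-CoA ligase gene (ranks 859, 431 and 313 in replicate 1, replicate 2 and the pool, distance 0.0263 among 2647 genes), and Y55F3AR.2 (1014, 394 and 337, distance 0.097). For mig-5 they were nuc-1, a DNase II gene (79, 3080 and 374, distance 0.129), and sur-7 (109, 2233 and 261, distance 0.178). For dsh-1 they were nlp-40, a neuropeptide gene (2778, 2375 and 4437, distance 0.0296), and C35A11.4 (2415, 2581 and 4066, distance 0.0884). Among the 11 other pathway genes with a region in all 3 lists, the nearest were lin-17 to dsh-2 (distance 0.945), tap-1 to mig-5 (distance 1.35) and mom-5 to dsh-1 (distance 0.227). The distances are built from the ranks that the choice of the genes used, so nothing is read from their order. The best ranks of a gene can also come from different places in it. At dsh-1 those of the replicates were in an intron and that of the pooled list was in a coding exon. At mom-5 that of replicate 1 was in the 3′ UTR and that of replicate 2 in a coding exon. At lin-17 that of replicate 1 was upstream, that of replicate 2 in an intron and that of the pooled list in a coding exon.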

How the data were processed

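UNC-62 ChIP-seq regions of 2 biological replicates were analysed. The authors deposited region lists in narrowPeak layout: 1 per replicate from its alignments and a control, 1 from the pooled replicates, and 1 thresholded by the irreproducible discovery rate, per the file headers in the read-me texts. The deposited signal value of each region and the −log10 of its q-value are the authors' own. Which aligner and peak caller were run, and at which threshold, is not stated in the labels or read-me texts. Replicates were compared by overlap (at least 1 bp) because the lists are unthresholded and hold no read counts.

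Lists for ce11 were joined to WBcel235 genes of Ensembl release 115, since 0 coordinates lay past a chromosome end and 99.7% of coding sequences began with ATG in the RefSeq copy of that assembly. Lists for ce10 were not used here. The summit is the start plus the deposited offset, 1-based. Distances run to the nearest start of any transcript. Assignment, overlap and word search were tested on made-up regions. Python 3.11.15, numpy 2.4.6 and pandas 2.3.3 were used.

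The genes, the comparison lists and the words were chosen with earlier results of these data known. Named genes were the 3 Dishevelled genes, the comparison genes with a thresholded peak or a pooled region found in both replicates, the best-ranked gene of each list, and the genes of most like rank. Outside this rule, the neighbours cct-1, C04G6.4, cest-16 and nhx-8, and wrm-1 and cwn-1, which had no region in any list, were named after their values were seen. Alternatives were the window, the nearest start, a q-value limit, the overlap rule, the ranking, the word distance and each replicate alone.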

Additional observations from a re-analysis of the deposited data

How the results depend on the processing

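Of 75 alternatives over 14 results, 51 kept counts and ranks within 1.5 times and 24 moved them further. Some could not move a count, since all 197 thresholded peaks had a q-value of 0.05 or less. With a q-value of 0.05 or less in every list, 1 Dishevelled gene (dsh-2) kept overlapping replicate regions and 1 kept a pooled region found in both, while a pooled region was left at 0 ligand, 0 receptor, 0 beta-catenin and 1 other pathway genes. Promoter windows alone gave 1 receptor and 3 other genes, and the nearest start gave 4 other genes. With 500 bp upstream, 0 ligand and 0 beta-catenin genes had a pooled region, and with 2000 bp 3 beta-catenin genes did. Either replicate alone, in its longer list, gave 2 to 3 ligand, 4 to 5 receptor, 2 to 3 beta-catenin and 13 to 13 other genes, and best ranks of 447 to 879 for dsh-2, 89 to 3155 for mig-5 and 2500 to 2904 for dsh-1. Ranking nuclear regions only, chosen after seeing the data, gave 279, 264 and 4383. The depth is unknown, so absence of a region does not show absence of binding. No paired analysis was possible because there was 1 group.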
